A study of Bos taurus with 48 samples.

Results

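The miR-29 family was followed in cattle across mammary parenchyma, mammary fat pad and liver and across 3 feeding groups. Its members were taken by name alone, as each row of the deposited normalized table called bta-miR-29a, bta-miR-29b, bta-miR-29c or bta-miR-29d with any arm or copy suffix. This gave 5 of the 524 miRNAs in the table, namely miR-29a, miR-29b, miR-29c and both arms of miR-29d (miR-29d-3p and miR-29d-5p). The row of bta-miR-29e held the same value as that of miR-29b in all 48 samples, so the reads of these names cannot be told apart and are given once, under miR-29b. Counts and shares over all miRNAs still include the row of bta-miR-29e.

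MicroRNAs are short RNAs that pair with messenger RNAs through the seed near their 5′ end and lower the amount of protein made from them. The miR-29 family is best known for repressing genes of the extracellular matrix, among them fibrillar collagens, elastin and fibrillin, and it also targets DNA methyltransferases. In the liver it is lost from stellate cells when these start to lay down scar tissue, and in adipose and liver cells it has been linked to insulin signalling. In the cattle annotation of RefSeq the MIR29A gene lies next to MIR29B-1 and the MIR29C gene next to MIR29B-2, so that miR-29b can come from either pair. MIR29D lies next to MIR29E, and the values given here as miR-29b may also hold reads from MIR29E.

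Tissues had been taken at slaughter from animals labelled ad libitum, restricted or control, where ad libitum and restricted stand for unlimited and limited amounts of milk replacer and the control feed is not described further. Each tissue had 6 ad libitum and 6 restricted samples, and control samples numbered 3 in parenchyma, 4 in the fat pad and 5 in the liver. The labels name no breed, age or sex, and they do not say whether samples with the same number came from the same animal, so the p-values measure only the spread between these samples, part of which may be technical. Same-numbered samples had the same feeding label in each tissue. The main tests between tissues took all samples as independent. Below, milk replacer samples are the ad libitum and restricted samples together.

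The deposited values are read counts per mature miRNA divided by 1 size factor per library, called normalized read counts here. A miRNA listed at 0 may have had up to 5 reads. The libraries held an estimated 6193678 to 11291532 reads in parenchyma, 2123962 to 9522666 in the fat pad and 826776 to 5146724 in the liver, so the low miR-29 miRNAs rest on the fewest reads in the liver. The 5 miRNAs of the liver list, such as miR-122, summed to at least 886369 in each liver sample and to at most 12253 in each mammary sample. The 10 miRNAs of the epithelial list summed to between 61371 and 110903 in the 12 milk replacer parenchyma samples. In the 3 control parenchyma samples this sum was only 92.5 to 421, with miR-429 and miR-375 listed at 0, which is within the range of the fat pad (17.4 to 436). The control parenchyma samples therefore go against the label of an epithelial tissue, and the results that rest on them are given separately from the others.

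miR-29a made up nearly all reads of the family in each sample. In the milk replacer samples it took between 97.4% and 98.5% of the family's normalized read counts in parenchyma, between 91.3% and 96.0% in the fat pad and between 95.8% and 97.8% in the liver. By mean value it ranked 54th of 524 miRNAs in parenchyma, 71st in the fat pad and 38th in the liver. The family as a whole took 0.285% ± 0.121 of all normalized read counts in milk replacer parenchyma (SD, n = 12), 0.106% ± 0.0278 in the fat pad and 0.372% ± 0.132 in the liver. Read counts of different miRNAs were not calibrated against known amounts of RNA, so these shares are shares of reads.

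miR-29a was highest in the liver, intermediate in parenchyma and lowest in the fat pad. In the milk replacer samples, liver normalized read counts lay between 10293 and 42083 (median 18057), parenchyma between 5508 and 15813 (median 7695) and fat pad between 2220 and 7869 (median 4311). The liver and fat pad ranges did not overlap, while parenchyma overlapped with both. How many of all miRNAs had ranges apart was not counted, here or for the members below. In the tests of milk replacer samples given below, 76.4% to 83.0% of all tested miRNAs differed between 2 tissues. In control samples the values were 11770, 15009, 11725, 14603 and 18337 in the liver, 5108, 12157 and 14079 in parenchyma, and 5449, 5152, 5747 and 7065 in the fat pad. The liver was again above the fat pad in each sample, and parenchyma replicate 1 lay with the fat pad while replicates 2 and 18 lay with the liver.

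miR-29b was high in the liver and at about the same level in both mammary tissues. Its milk replacer values were 241 to 977 in the liver (median 441), 50.1 to 202 in parenchyma (median 90.5) and 61.1 to 219 in the fat pad (median 127). The liver values lay above all mammary values of these groups. In control parenchyma miR-29b was at 152, 386 and 394, so that 2 of the 3 samples exceeded the 12 milk replacer samples by a wide margin. The control fat pad held 124, 134, 137 and 166, and the control liver 268, 491, 310, 311 and 320.

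miR-29c had a different order, with the fat pad at the top. Its milk replacer values were 35.0 to 107 in the fat pad (median 67.6), 4.22 to 27.1 in parenchyma (median 13.3) and 0 to 116 in the liver (median 38.8). Each of the 12 parenchyma samples lay below each of the 12 fat pad samples. The liver spanned both ranges and was listed at 0 in ad libitum replicate 6 and restricted replicate 5, where 6 reads would have given 37.2 and 20.9. Control parenchyma held 68.7, 155 and 65.7, above the milk replacer samples and within or above the fat pad range. The control fat pad was at 35.0, 99.2, 95.8 and 112, and the control liver at 21.8, 18.3, 42.5, 33.6 and 58.5. The reads behind these values were few, from 9 to 61 per sample in milk replacer parenchyma and from 0 to 97 in the liver.

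The arms of miR-29d differed in their order across tissues. miR-29d-3p followed the pattern of miR-29b, with 39.4 to 191 in the milk replacer liver (median 109), 9.83 to 63.8 in parenchyma (median 20.6) and 7.75 to 53.9 in the fat pad (median 19.4). miR-29d-5p was highest in the fat pad, with 17.7 to 103 (median 68.7), against 14.7 to 59.0 in parenchyma (median 29.2) and 0 to 81.0 in the liver (median 53.6). It was listed at 0 in liver ad libitum replicates 6 and 11. In control parenchyma miR-29d-3p was at 21.4, 71.7 and 79.4 and miR-29d-5p at 97.7, 63.6 and 73.5, so that the 5p arm lay above all milk replacer parenchyma samples in each case and the 3p arm in 2 of the 3.

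**Figure D1:**
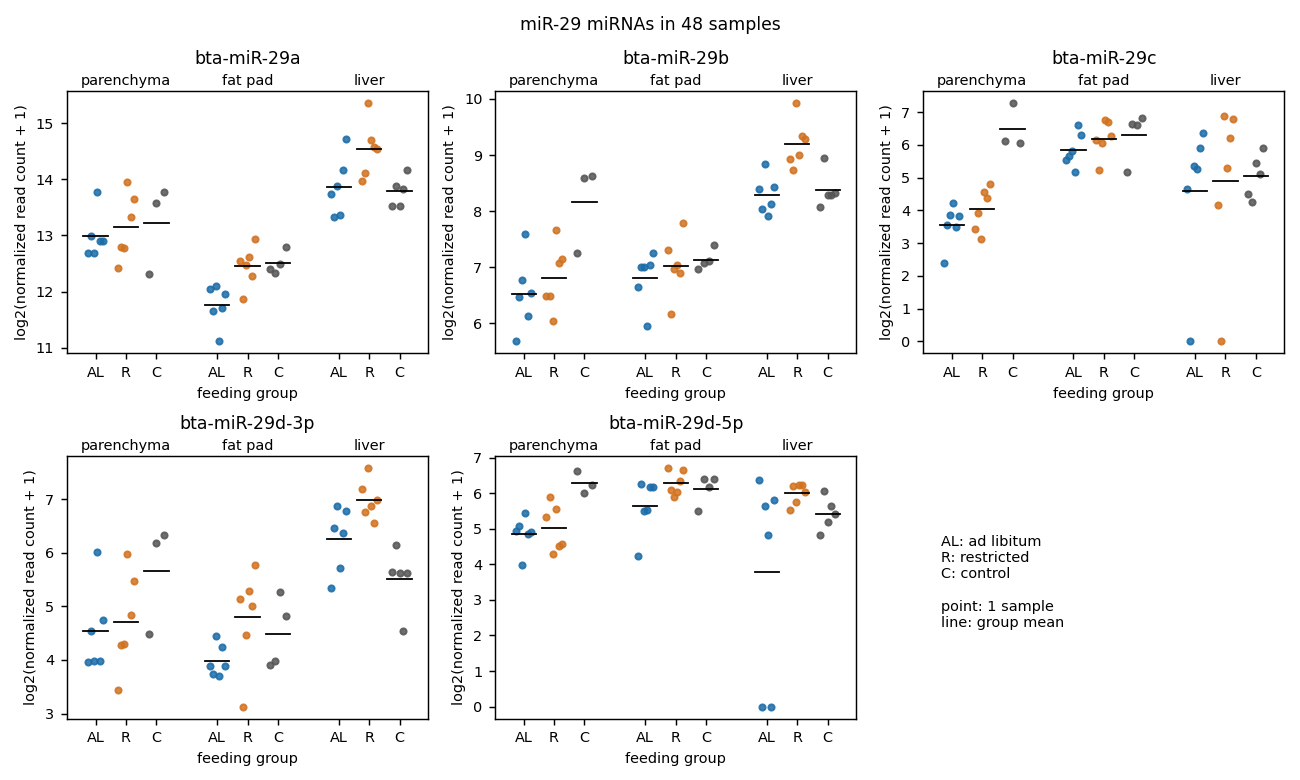
Level of each miR-29 miRNA in the 48 samples, as log2(normalized read count + 1) on the vertical axis, by tissue and feeding group on the horizontal axis; points are samples and lines are group means. In the milk replacer samples the liver has the highest mean for miR-29a, miR-29b and miR-29d-3p and parenchyma the lowest for miR-29c. In the control samples mean miR-29d-3p is 57.5 in parenchyma and 47.6 in the liver, and points at 0 are samples in which the miRNA was listed at 0.

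Differences between tissues were tested with limma on log2(value + 1), first in the milk replacer samples (12 per tissue), with Benjamini-Hochberg adjustment over all miRNAs tested and a threshold of 0.05. Folds are those of log2(value + 1), where the added 1 shrinks the differences of low values above 0, while samples listed at 0, which may hold up to 5 reads, can enlarge them. miR-29a and miR-29c moved in opposite directions between the mammary tissues. In parenchyma against the fat pad 3 of the 5 miRNAs passed, 1 higher and 2 lower, while 83.0% of all tested miRNAs passed in this comparison. miR-29a was 1.95-fold higher in parenchyma (log2 difference 0.97, SE 0.17, limma adjusted p = 1.78e-05). miR-29c was 4.67-fold lower (log2 difference -2.22, SE 0.24, limma adjusted p = 5.79e-09) and miR-29d-5p 2.03-fold lower (-1.02, SE 0.24, limma adjusted p = 0.00037). The log2 differences of miR-29b (-0.25, SE 0.22) and miR-29d-3p (0.23, SE 0.31) did not pass (limma adjusted p = 0.292 and 0.494), and that of miR-29b turned to 0.20 when libraries were rescaled to an equal sum.

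Markers of several cell types differed between the mammary tissues in the same comparison. Both endothelial miRNAs, the arms of miR-126, were lower in parenchyma (median log2 difference -2.15, sums of 52569 to 106702 against 254628 to 431282). All 6 adipocyte-linked miRNAs were lower (median -2.63, sums of 1176 to 16767 against 33284 to 88266), as were 4 of 5 stromal and smooth muscle miRNAs (median -0.99, sums of 186203 to 266139 against 379604 to 696624) and both erythroid miRNAs tested. All 10 epithelial miRNAs were higher, of 7 immune miRNAs 4 were higher and 1 lower, of the liver list 1 of 5 was higher and 2 were lower, and of 3 striated muscle miRNAs 1 was higher. The part of these cell types in the differences of miR-29a, miR-29c and miR-29d-5p was not tested, and in bulk tissue fewer cells of a type and less RNA per cell cannot be told apart.

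In the liver against parenchyma, miR-29a, miR-29b and miR-29d-3p were higher in the liver and none was lower, against 76.4% of all miRNAs passing in either direction. miR-29b was 4.22-fold higher (log2 difference 2.08, SE 0.22, limma adjusted p = 3.66e-09) and miR-29d-3p 4.00-fold higher (2.00, SE 0.29, limma adjusted p = 9.37e-07). miR-29a was 2.18-fold higher (1.13, SE 0.20, limma adjusted p = 1.41e-05), but 0.38 and no longer past the threshold after rescaling to an equal sum (limma adjusted p = 0.0954). miR-29c was at 0.94 (SE 0.68, limma adjusted p = 0.21) and miR-29d-5p at -0.06 (SE 0.62, limma adjusted p = 0.937). Both had liver samples listed at 0, and with a pseudocount of 10 in place of 1 miR-29c was higher in the liver (0.96, limma adjusted p = 0.0151).

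In the liver against the fat pad miR-29a, miR-29b and miR-29d-3p were again higher and none lower, with 76.5% of all miRNAs passing. miR-29a was 4.27-fold higher (log2 difference 2.09, SE 0.17, limma adjusted p = 3.51e-11), miR-29d-3p 4.70-fold higher (2.23, SE 0.25, limma adjusted p = 1.32e-08) and miR-29b 3.55-fold higher (1.83, SE 0.20, limma adjusted p = 5.68e-09). miR-29c and miR-29d-5p had negative differences of -1.28 (SE 0.67, limma adjusted p = 0.0841) and -1.08 (SE 0.61, limma adjusted p = 0.107) that did not pass. Both did pass when libraries were rescaled to an equal sum (-1.13 and -0.96, limma adjusted p = 0.0181 and 0.0269) or when control samples were included (-1.28 and -0.98, limma adjusted p = 0.0223 and 0.0497).

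The scale of the libraries bears on these differences. The median log2 difference of all tested miRNAs was 0.37 in parenchyma against the fat pad, -0.39 in the liver against parenchyma and -0.20 in the liver against the fat pad, and it became 0.77, -0.98 and -0.47 after rescaling to an equal sum. Relative to that median, miR-29a stood at 0.59 in parenchyma against the fat pad as deposited and at 0.66 after rescaling, miR-29b at -0.63 and -0.57, and miR-29c at -2.60 and -2.37. In the liver against parenchyma miR-29a stood at 1.52 and 1.36 relative to the median, miR-29b at 2.47 and 2.30, and miR-29d-3p at 2.39 and 2.15.

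In the control samples fewer miR-29 differences passed, with 3 to 5 samples per tissue. In the liver against the fat pad miR-29a was higher (log2 difference 1.28, SE 0.17, limma adjusted p = 5.95e-05), miR-29b was higher (1.25, SE 0.21, limma adjusted p = 0.000283) and miR-29c was lower (-1.26, SE 0.44, limma adjusted p = 0.0279), where 64.2% of all miRNAs passed. The call of miR-29c rested on single samples, since it was lost without liver control replicate 1 or 2 or without fat pad control replicate 18, 19 or 21 (-1.64 to -1.07 over the 9 fits, highest limma adjusted p = 0.0843), and it was also lost after rescaling to an equal sum (-1.05, limma adjusted p = 0.0505). miR-29d-3p was at 1.03 (limma adjusted p = 0.051), which passed after rescaling (1.02, limma adjusted p = 0.0441), and miR-29d-5p at -0.69 (limma adjusted p = 0.081). No miR-29 miRNA passed in control parenchyma against control fat pad, where 1.88% of all miRNAs did, and 0 of 5 had an unadjusted limma p under 0.05, against 76 of 319 miRNAs in all. There the log2 differences were 0.72 (SE 0.40) for miR-29a, 1.03 (SE 0.47) for miR-29b and 0.18 (SE 0.60) for miR-29c, and without parenchyma control replicate 1 the first and second became 1.17 and 1.48 (limma adjusted p = 0.0176 and 0.0238). Nor did any pass in control liver against control parenchyma (22.6% of all miRNAs), with 0.56 (SE 0.38) for miR-29a, 0.22 (SE 0.43) for miR-29b and -1.44 (SE 0.58, limma adjusted p = 0.0935) for miR-29c, which alone of the 5 had an unadjusted limma p under 0.05, against 134 of 337 miRNAs in all.

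**Figure D2:**
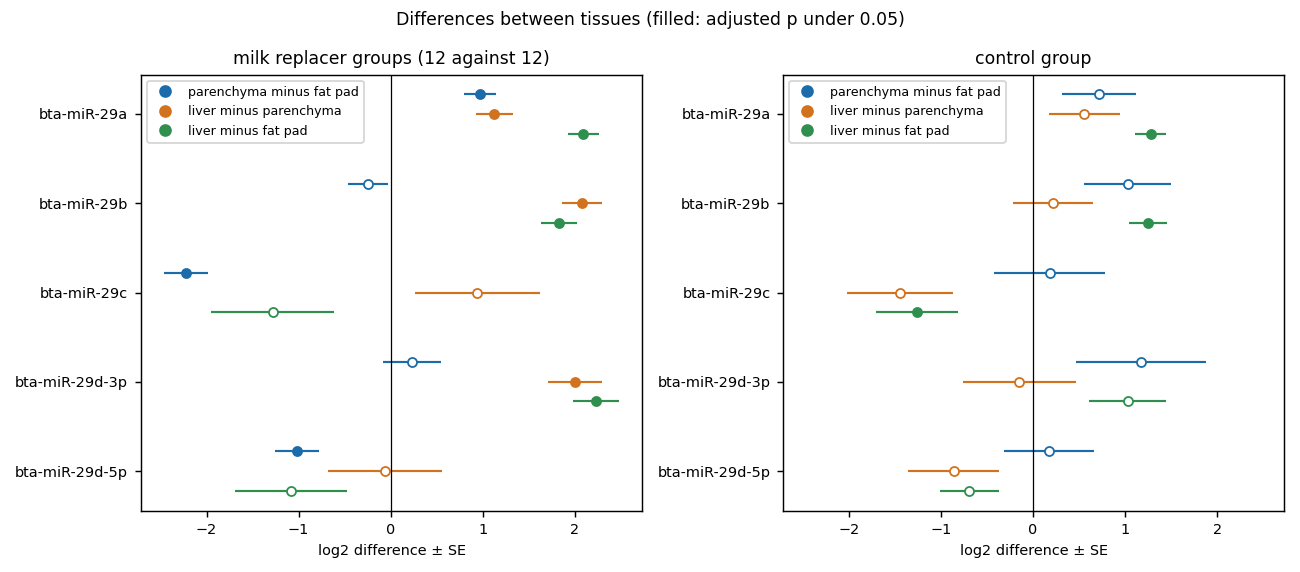
Log2 difference between tissues (horizontal axis, with SE) for each miR-29 miRNA (vertical axis), in the milk replacer samples on the left and in the control samples on the right; filled points passed an adjusted p of 0.05 by limma. miR-29c is at -2.22 in milk replacer parenchyma minus fat pad and at 0.18 in the control samples.

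Ratios between members were formed within each library from log2(value + 1), where the scale of the library cancels except for the added 1. For low values of miR-29c, and most where it was listed at 0, the ratio still depends on that scale. The ratio of miR-29c to miR-29a lay in separate ranges in the mammary tissues. Its log2 value ranged from -10.31 to -8.82 in the 12 milk replacer parenchyma samples and from -6.68 to -5.09 in the 12 fat pad samples. The difference of the means was -3.19 (SE 0.19, two-sided permutation test, p = 1e-05, adjusted p = 4.5e-05 over 18 ratio comparisons), and this p is the smallest that 100000 resamples can give. In the liver the ratio ranged from -14.11 to -7.75, the lowest values being those of the samples listed at 0, and was below that of the fat pad (log2 difference -3.38, SE 0.61, permutation test, p = 1e-05, adjusted p = 4.5e-05; -2.80 with a pseudocount of 10). Between the liver and parenchyma it differed by -0.19 (SE 0.61, permutation test, adjusted p = 0.767).

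The ratio of miR-29b to miR-29a was lower in parenchyma than in both other tissues. Its mean log2 value in the milk replacer samples was -6.41 ± 0.33 in parenchyma, -5.19 ± 0.36 in the fat pad and -5.45 ± 0.38 in the liver (SD, n = 12 each). Parenchyma lay below the fat pad by a log2 difference of -1.22 (SE 0.14, permutation test, p = 1e-05, adjusted p = 4.5e-05), and the liver lay above parenchyma by 0.95 (SE 0.14, permutation test, p = 1e-05, adjusted p = 4.5e-05). The liver and the fat pad differed by -0.26 (SE 0.15, permutation test, p = 0.0901, adjusted p = 0.203), which was not past the threshold.

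**Figure D3:**
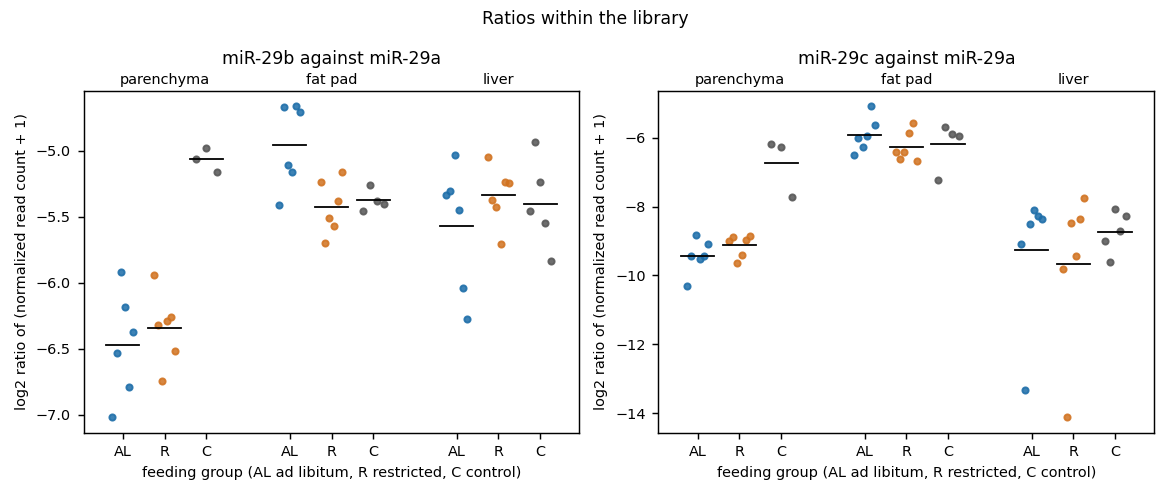
Log2 ratio of miR-29b to miR-29a (left) and of miR-29c to miR-29a (right) in each sample, on the vertical axis, by tissue and feeding group; points are samples and lines are group means. Control parenchyma lies at -5.16 to -4.97 for miR-29b, above all 12 milk replacer parenchyma samples, and the lowest liver points for miR-29c, -13.33 and -14.11, are the samples in which miR-29c was listed at 0.

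The effect of the feeding level on the family was examined as ad libitum against restricted within each tissue. All 5 miR-29 miRNAs had negative log2 differences, that is lower values in ad libitum samples, in each of the 3 tissues. The 5 were measured in the same libraries and the 3 tissues may come from the same animals, so these directions are not independent. How many of all miRNAs were negative in each of the 3 tissues was not counted. The median log2 difference of all tested miRNAs was 0.05 in parenchyma, -0.02 in the fat pad and -0.01 in the liver. Only 1 of the 15 miR-29 differences passed. This was miR-29a in the fat pad. It ranged from 2220 to 4399 in ad libitum samples (median 3645) and from 3746 to 7869 in restricted samples (median 5828), so that the groups overlapped only through restricted replicate 5. The difference was 1.61-fold (log2 difference -0.69, SE 0.18, limma adjusted p = 0.0166), in a tissue where 16.6% of all tested miRNAs passed. It passed in each of the 16 fits that left out 1 sample (-0.81 to -0.56, limma adjusted p from 0.00397 to 0.0416), without the control samples (limma adjusted p = 0.0261) and with log2 reads as a covariate (-0.73, limma adjusted p = 0.0169). Few marker miRNAs passed beside it. Of the adipocyte-linked miRNAs 1 of 6 was higher and 1 lower in ad libitum fat pad, with a median log2 difference of 0.11 over the 6. Their sum, which mostly reflects the most abundant members, had a median of 77966 in ad libitum samples (62202 to 88266). In restricted samples it was 45768 (33284 to 70418). Of the striated muscle miRNAs 1 of 3 was lower, with median sums of 892 (591 to 2586) and 1541 (693 to 3277). Of the stromal and smooth muscle miRNAs 1 of 5 was lower, with median sums of 467899 and 477536. Their part in the miR-29a difference was not tested.

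The other members of the fat pad had differences of -0.22 (SE 0.25) for miR-29b, -0.34 (SE 0.33) for miR-29c, -0.82 (SE 0.41) for miR-29d-3p and -0.64 (SE 0.31) for miR-29d-5p, with limma adjusted p from 0.181 to 0.575. miR-29d-3p alone passed in 1 of 16 fits that left out a sample, without fat pad restricted replicate 5 (-1.15, limma adjusted p = 0.0288). Within the library, the ratio of miR-29b to miR-29a was higher in ad libitum fat pad by 0.48 (SE 0.15, exact permutation test, p = 0.0152, adjusted p = 0.039). That call held in 4 of 12 fits without 1 sample (0.42 to 0.57, adjusted p from 0.0111 to 0.0835) and was lost without ad libitum replicate 6, 7, 11 or 15 or restricted replicate 5, 8, 10 or 13. The ratio of miR-29c to miR-29a differed by 0.35 (SE 0.27, exact permutation test, adjusted p = 0.456).

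In the liver miR-29b was mostly lower in ad libitum samples, without passing the adjustment. It ranged from 241 to 457 in ad libitum samples (median 308) and from 425 to 977 in restricted samples (median 568), with 1 sample of each group in the overlap. The log2 difference was -0.91 (SE 0.25, limma adjusted p = 0.149). Without single samples the limma adjusted p stayed between 0.0686 and 0.481. miR-29a differed by -0.68 (SE 0.25, limma adjusted p = 0.499), with 10293 to 26747 in ad libitum samples (median 14298) and 16045 to 42083 in restricted samples (median 24060). miR-29d-3p differed by -0.74 (SE 0.37) and miR-29c by -0.29 (SE 1.09). The larger value of miR-29d-5p, -2.23 (SE 0.94, limma adjusted p = 0.733), was measured with 2 ad libitum samples listed at 0, and the group means were 35.3 in ad libitum and 63.9 in restricted samples. Of the 5 miRNAs 3 had an unadjusted limma p under 0.05, against 15 of 309 miRNAs in all, which include the row of bta-miR-29e. None of the 5 passed after adjustment, while 0.324% of all tested miRNAs did.

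In parenchyma the values of the feeding levels lay over each other. miR-29a was at 6603 to 13932 in ad libitum samples (median 7695) and at 5508 to 15813 in restricted samples (median 8728), and miR-29c at 4.22 to 17.8 (median 12.0) and 7.76 to 27.1 (median 16.9). The log2 differences ranged from -0.48 (SE 0.42) for miR-29c to -0.17 (SE 0.31) for miR-29a, each with a limma adjusted p of 0.98. In this tissue 0% of all miRNAs passed by limma, and 0 of 339 had an unadjusted limma p under 0.05. The spread in this fit was estimated over all 15 parenchyma samples, including the 3 control samples that go against their label. The lack of calls therefore does not show that feeding level had no effect. With control samples left out of the fits, the 15 miR-29 differences of the 3 tissues stayed on the same side of the threshold.

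Whether the effect of feeding level differed between tissues was tested in 1 limma fit over all 48 samples. No miR-29 miRNA passed in any pair of tissues, where 0% (parenchyma and fat pad), 0.290% (liver and parenchyma) and 0% (liver and fat pad) of all miRNAs did. At an unadjusted limma p under 0.05 these were 11, 9 and 28 of 345 miRNAs, with 0, 1 and 0 of the 5 miR-29 miRNAs, the 1 being miR-29d-5p. For miR-29a the effect in parenchyma minus that in the fat pad was 0.53 (SE 0.36) and that in the liver minus that in the fat pad 0.01 (SE 0.36), both with limma adjusted p near 1. The call in the fat pad is therefore not shown to differ from the effects in the liver or parenchyma.

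Milk replacer against control was taken next, as the mean of the ad libitum and restricted groups minus the control group. In parenchyma 3 of the 5 miRNAs were lower in milk replacer samples and none was higher, where 45.4% of all miRNAs passed. miR-29c was 6.46-fold lower (log2 difference -2.69, SE 0.47, limma adjusted p = 0.000172), miR-29b 2.81-fold lower (-1.49, SE 0.41, limma adjusted p = 0.00635) and miR-29d-5p 2.53-fold lower (-1.34, SE 0.40, limma adjusted p = 0.0101). miR-29a was at -0.15 (SE 0.35, limma adjusted p = 0.751), which became 0.19 after rescaling to an equal sum, and miR-29d-3p at -1.04 (SE 0.56, limma adjusted p = 0.15). The 3 calls passed in each of the 15 fits without 1 sample, and that of miR-29d-5p was lost after rescaling (-0.95, limma adjusted p = 0.0502).

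Within the library the same contrast appeared against miR-29a. The ratio of miR-29c to miR-29a was lower in milk replacer parenchyma by 2.54 (log2 difference -2.54, SE 0.51) and that of miR-29b to miR-29a by 1.34 (-1.34, SE 0.11), both at the smallest p that 455 arrangements of 12 against 3 samples allow (exact permutation test, p = 0.0022, adjusted p = 0.00659). Each of the 3 control samples lay above each of the 12 milk replacer samples in both ratios.

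These differences in parenchyma moved together with the marker miRNAs of several cell types. All 10 epithelial miRNAs were higher in milk replacer parenchyma. Of the adipocyte-linked list 2 of 6 were lower, with sums of 1176 to 16767 in milk replacer samples. In the 3 control samples these sums were 9223, 85275 and 87259. Of the stromal and smooth muscle list 3 of 5 were lower, with sums of 186203 to 266139 against 619146 to 758006. Both endothelial miRNAs were lower, with sums of 52569 to 106702 against 172748 to 426786. Of the immune list 1 of 7 was higher and 2 were lower. Its sums in the 3 control samples were 5059, 5376 and 100531, the highest being that of replicate 18. The control samples were therefore not alike in these lists. Of the liver list 3 of 5 were lower and of the erythroid list 1 of 3, while none of 3 striated muscle miRNAs passed. The part of these cell types in the miR-29 differences was not tested.

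In the fat pad no miR-29 miRNA passed in milk replacer against control, where 11.0% of all miRNAs did, and the log2 differences ranged from -0.40 (SE 0.18, limma adjusted p = 0.141) for miR-29a, the 1 of the 5 with an unadjusted limma p under 0.05 (95 of 301 miRNAs in all), to -0.10 (SE 0.41) for miR-29d-3p. In the liver none passed either, against 6.80% of all miRNAs. The largest difference of the 5 there, and the 1 with an unadjusted limma p under 0.05 (59 of 309 miRNAs in all), was that of miR-29d-3p, which was at 39.4 to 191 in milk replacer samples (median 109) and at 49.2, 69.4, 48.6, 22.4 and 48.2 in control samples. Its log2 difference of 1.11 (SE 0.34, limma adjusted p = 0.0545) passed with a pseudocount of 10 (0.97, limma adjusted p = 0.0392), without a trend of variance (limma adjusted p = 0.0303) and without liver ad libitum replicate 3 or 9. miR-29a and miR-29b were at 0.42 (SE 0.23) and 0.37 (SE 0.23).

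The effect of milk replacer against control was also compared between tissues in the fit over all samples. For miR-29b the effect in parenchyma was below that in the fat pad by 1.28 (log2 difference of differences -1.28, SE 0.44, limma adjusted p = 0.0256), in a comparison that 25.8% of all miRNAs passed. The effect in the liver was above that in parenchyma for miR-29b (1.86, SE 0.43, limma adjusted p = 0.000347) and miR-29d-3p (2.15, SE 0.61, limma adjusted p = 0.00346), where 40.3% of all miRNAs passed. For miR-29c the corresponding values were -2.41 (SE 1.14, limma adjusted p = 0.113) and 2.38 (SE 1.10, limma adjusted p = 0.0808), and both passed with a pseudocount of 10 (-1.82 and 2.18, limma adjusted p = 0.025 and 0.00356). Between the liver and the fat pad none passed, against 11.3% of all miRNAs, and 2 of the 5, miR-29a and miR-29d-3p, had an unadjusted limma p under 0.05, against 87 of 345 miRNAs in all. All of these rest on the 3 control parenchyma samples, except those of the liver and the fat pad.

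**Figure D4:**
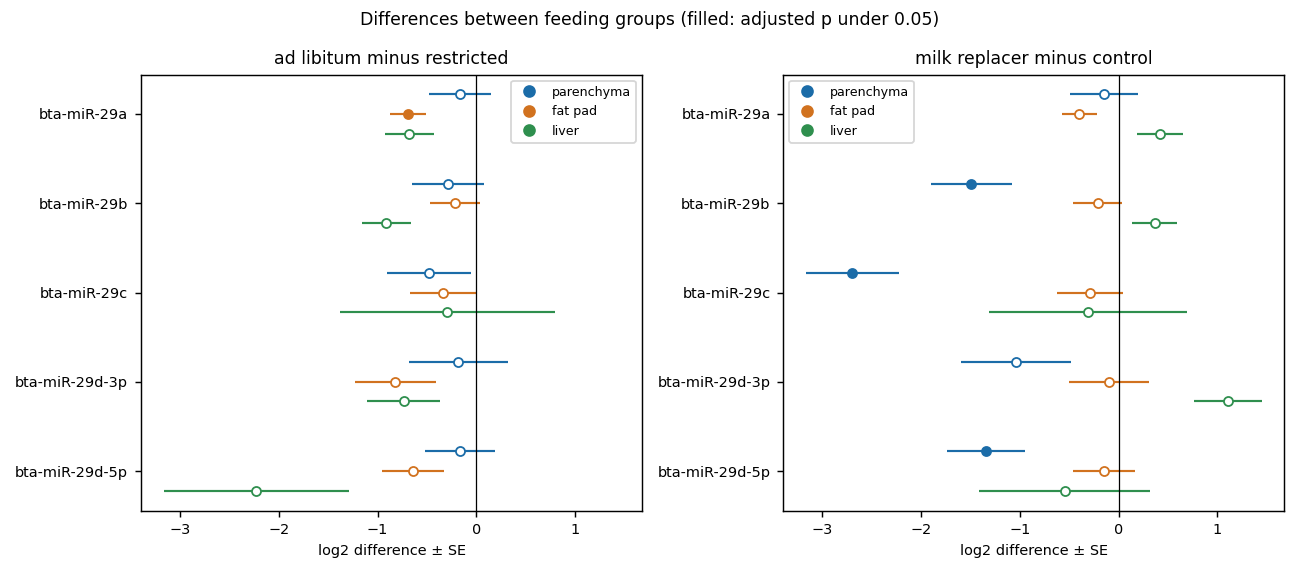
Log2 difference between feeding groups (horizontal axis, with SE) for each miR-29 miRNA (vertical axis) in the 3 tissues, ad libitum minus restricted on the left and milk replacer minus control on the right; filled points passed an adjusted p of 0.05 by limma. On the left only miR-29a in the fat pad (-0.69) passed, and on the right miR-29b, miR-29c and miR-29d-5p passed in parenchyma.

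The miRNAs with the pattern most like that of each main member were sought over the 9 means of tissue and feeding group, as Pearson's r of log2(value + 1). The points share their libraries and mostly reflect 3 tissues, so r is given as a description. They include control parenchyma, which goes against its label and whose samples were not alike in marker sums. Mean miR-29c was 96.4 there, against 11.6 in ad libitum and 16.8 in restricted parenchyma. miR-155 was also higher there, at -2.61 (SE 0.54) in milk replacer against control parenchyma. The part of these samples in r was not tested. miR-29a was closest to miR-30e-5p (r = 0.96) and to the copies miR-92a-2 and miR-92a-1 (r = 0.96 each), between which the counting could split reads. miR-29b was closest to the copies miR-101-2 and miR-101-1 (r = 0.94 each), for which the same holds, and to miR-140 (r = 0.94). miR-29c was closest to miR-155 (r = 0.96), a miRNA of activated immune cells, the endothelial miR-126-3p (r = 0.94) and miR-378c (r = 0.92). Within the family, miR-29a had r = 0.83 with miR-29b, 0.92 with miR-29d-3p and -0.41 with miR-29c. miR-29b had r = 0.94 with miR-29d-3p and 0.10 with miR-29c, and miR-29c had r = 0.73 with miR-29d-5p.

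Other miRNAs linked to matrix and fibrosis were counted for comparison. Of a list of 8 known to promote fibrosis 7 were in the table, and of 11 known to oppose it 10 were. In parenchyma against the fat pad of the milk replacer samples 5 of the promoting miRNAs were higher and 1 was lower, with a median log2 difference of 1.17 (0.37 over all miRNAs), in a comparison that 83.0% of all miRNAs passed. miR-21-5p, which is raised in scarring tissue, was higher by 1.51 (SE 0.16, limma adjusted p = 4.83e-09), and the lower one was miR-155 (-2.18, SE 0.13, limma adjusted p = 5.88e-14). Of the opposing list 4 were higher and 3 lower, and the higher ones included miR-200a, miR-200b and miR-200c, which are epithelial miRNAs. In the liver against the fat pad 5 of the promoting miRNAs were lower and 1 was higher, while 7 of the opposing ones were higher and none lower, with medians of -1.53 and 2.31 (-0.20 over all miRNAs) and 76.5% of all miRNAs passing. The higher promoting miRNA was miR-21-5p (2.11, SE 0.17, limma adjusted p = 1.84e-11). The 7 higher opposing ones included miR-122 (13.13, SE 0.85, limma adjusted p = 4.24e-13), the main miRNA of hepatocytes, and miR-30c (1.44, SE 0.10, limma adjusted p = 3.33e-12). The epithelial miR-200a, miR-200b and miR-200c were also among the 7 (8.92, 6.88 and 4.05).

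Between feeding levels few of these miRNAs passed. In the fat pad, where 16.6% of all miRNAs passed, 1 of 7 promoting miRNAs was higher in ad libitum samples, miR-34a (0.60, SE 0.18, limma adjusted p = 0.0359), and 2 of 10 opposing ones were lower, miR-26a (-0.48, SE 0.09, limma adjusted p = 0.00239) and miR-133a (-0.98, SE 0.31, limma adjusted p = 0.0418). The summed level of the opposing list ran from 270188 to 329258 in ad libitum fat pad (median 303976) and from 345089 to 461840 in restricted fat pad (median 417270). These ranges did not overlap, and the restricted samples were higher. Such a sum mostly reflects the most abundant members. The median log2 difference of the 10 opposing miRNAs was 0.06 (-0.02 over all miRNAs), and 8 of them did not pass. miR-133a, a miRNA of striated muscle, was also lower in ad libitum liver (-1.87, SE 0.39, limma adjusted p = 0.0325), where none of the other members of the lists passed. In parenchyma none passed between feeding levels. In milk replacer against control parenchyma 5 promoting miRNAs were higher and 1 lower, and 3 opposing ones were higher and 3 lower, with medians of 1.11 and -0.50 (0.13 over all miRNAs) and 45.4% of all miRNAs passing. The 3 higher opposing ones were the epithelial miR-200a, miR-200b and miR-200c (9.95, 9.33 and 8.62). This comparison rests on the 3 control parenchyma samples, which go against their label.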

How the data were processed

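Small RNA was sequenced in 48 samples after ligation of adaptors. The submitters' processing notes list DESeq2, Trim Galore, FastQC and bcl2fastq with no version, and which program assigned reads, on which genome build, is not given in the sources used here. Deposited values are read counts, which the authors scaled with 1 size factor for each library. Each value was a whole multiple of 1 step per library (tolerance 0.01) and no value above 0 was under 6 steps, from which reads were estimated. The table also holds the authors' own mean, fold changes and p-values, which were not used.

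Differences were tested with limma 3.58.1 (R 4.3.3) after log2(value + 1) transformation, allowing variance to follow the level, over miRNAs with a mean of at least 10 in the fit and Benjamini-Hochberg adjustment (threshold 0.05), and ratios with two-sided permutation tests in Python 3.11.15 (exact with fewer than 10 samples in a group, otherwise 100000 resamples). Both were tested on simulated data. Tissues were compared with the feeding group as a covariate. The members, the lists of other miRNAs, the rule for similar miRNAs (3 per member) and the tests were chosen with earlier results of these data known. Names of gene copies such as miR-101-1 and miR-101-2 were matched to the lists through the copy with the highest mean. Counts of a list cover only its members found in the table and tested in that comparison. The alternatives were a pseudocount of 10, no filter, rescaling of each library to a sum of 1000000, no trend, a replicate block, control samples included, and each sample left out in turn. Fits without control samples, with log2 reads as a covariate and with a replicate block over all samples were added after the data were seen.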

Additional observations from a re-analysis of the deposited data

Results flagged for a closer look

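Single samples stood apart within their group in 3 of 40 groups of a miR-29 miRNA tested for this, where chance gives about 2. In ad libitum parenchyma, replicate 9 had the highest miR-29a (13932 normalized read counts) and the highest miR-29d-3p (63.8). In the control liver, replicate 2 had the highest miR-29b (491).

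The effect of milk replacer against control differed between tissues for miR-29b, by -1.28 in parenchyma minus the fat pad (limma adjusted p = 0.0256) and by 1.86 in the liver minus parenchyma (limma adjusted p = 0.000347), and for miR-29d-3p by 2.15 in the liver minus parenchyma (limma adjusted p = 0.00346), all on the log2 scale. Each involves the 3 control parenchyma samples, whose marker miRNAs are given with the parenchyma results.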

How the results depend on the processing

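Of 1287 values recomputed under the alternatives for 108 results, 1246 stayed on the same side of the threshold, 25 passed anew, 16 no longer passed, and no called value changed sign. Rescaling to an equal sum gave 0.38 for miR-29a in milk replacer liver against parenchyma, -1.13 for miR-29c and -0.96 for miR-29d-5p in milk replacer liver against fat pad, -1.05 for miR-29c (call lost) and 1.02 for miR-29d-3p (call gained) in control liver against fat pad, -0.95 for miR-29d-5p in milk replacer against control parenchyma, and -2.05 (parenchyma minus fat pad) and 1.98 (liver minus parenchyma) for the tissue difference of milk replacer against control of miR-29c. A pseudocount of 10 gave 0.96 for miR-29c in milk replacer liver against parenchyma, 0.97 for miR-29d-3p in milk replacer against control liver, and -1.82 and 2.18 for those tissue differences of miR-29c. Without the trend, miR-29d-3p stood at 1.03 in control liver against fat pad and at 1.11 in milk replacer against control liver. With control samples included, miR-29c and miR-29d-5p stood at -1.28 and -0.98 in liver against fat pad. The cause was not tested.

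With the replicate number as a block, miR-29c passed in milk replacer liver against fat pad (-1.28) and in the liver minus parenchyma difference of milk replacer against control (2.72), and no other miR-29 call changed in the tissue comparisons or in the fit over all samples, for which the block was added after the data were seen. The permutation tests of ratios between tissues had no such block. Whether the numbers pair samples is not settled, though same-numbered samples had the same feeding label in each tissue. A correlation of deviations over 0.1 was seen in 7 of 14, 6 of 15 and 11 of 16 pairs of same-numbered samples. These are the pairs of parenchyma and fat pad, liver and parenchyma, and liver and fat pad. Samples correlated best with their own number in 5, 6 and 10 of these pairs. If all samples of a group were alike, 2.5, 3 and 3 would do so.

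Without single samples, control parenchyma against fat pad ranged from 0.44 to 1.17 for miR-29a and from 0.80 to 1.48 for miR-29b. Control liver against fat pad ranged from -1.64 to -1.07 for miR-29c, from 0.83 to 1.28 for miR-29d-3p and from -0.89 to -0.54 for miR-29d-5p. For miR-29d-3p, milk replacer against control stood between -1.63 and -0.71 in parenchyma and between 0.87 and 1.26 in the liver, and ad libitum against restricted in the fat pad from -1.15 to -0.62. The ratio of miR-29b to miR-29a in ad libitum against restricted fat pad ranged from 0.42 to 0.57. Depth limits miR-29c and miR-29d most, with 0 to 97 and 0 to 112 reads per liver sample.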
